A study of Mus musculus with 7 samples.

Results

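Wnt ligands, their receptors and the genes that restrain them were followed in oligodendroglia from mouse brain, in wild-type cells (control, genotype Sox9-wt, 3 libraries) and in cells with excess Sox9, a transcription factor (genotype Sox9-tg, 4 libraries). The 58 members were taken by gene name from the 49315 genes of the count tables: 19 Wnt ligands, 12 receptors of the Frizzled and LRP type, 8 genes of the R-spondin arm, 10 secreted inhibitors, 5 membrane and intracellular inhibitors and 4 nuclear effectors. By the title of the series they were NG2 glia, taken soon after birth, and the question was which genes Sox9 controls in them. The sources used here do not give what drives the transgene, its copy number, an age in days, or whether a library pools animals, and apart from Sox9 both groups are described alike. The sample titles call the replicates biological, but nothing says that they came from separate animals or cultures. Their p-values therefore cover the spread among these 7 libraries only, part of which may be technical.

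Wnt proteins are secreted lipid-modified ligands that bind a Frizzled receptor together with the co-receptor LRP5 or LRP6. Binding stops the Axin and APC complex from destroying β-catenin (Ctnnb1), which then acts with TCF and LEF factors on target genes, several of which (Axin2, Nkd1, Notum, Rnf43, Znrf3) shut the pathway down again. In oligodendrocyte progenitors this pathway is known for holding back differentiation, and Wnt7a and Wnt7b from these cells are known to act on brain vessels.

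Libraries held 15768472 to 30507326 gene counts, of which 0.267% to 0.307% fell on the 58 members. Sox9 separated the groups, at 295 ± 57.0 CPM (read count scaled to library size; SD, n = 3) and 2915 ± 588 CPM (SD, n = 4). Markers of the labelled cell type were present in every library: the summed level of 10 NG2 glia genes was 4115 to 5187 CPM in control and 9923 to 13903 CPM in Sox9-tg libraries. Neuronal genes summed to 2089 to 3845 and 914 to 2421 CPM, neural progenitor genes to 2210 to 2931 and 1660 to 2334 CPM, and proliferation genes to 1468 to 2254 and 552 to 1018 CPM. Control replicate 2 stood apart in markers of other cells, with 453 CPM over 8 microglial genes against 62.0 and 116 CPM in the other control libraries and 31.9 to 189 CPM in Sox9-tg libraries, and 138 CPM over 8 endothelial genes against 7.02 to 32.8 CPM elsewhere. Among endothelial markers Emcn and Slco1a4 were at 0 in some library, and among fibroblast markers Col3a1, Slc6a13, Lum and Aldh1a2. Lum was at 0 in control replicate 1 only, and measured 1.37 to 6.88 CPM in Sox9-tg libraries. In such bulk RNA, fewer cells of a type and less RNA per cell cannot be told apart.

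Promoter sequence is shown for Fzd1, which rose, and Fzd7 and Rspo1, which fell, since these are the changed members with a RefSeq start site whose window lies outside the annotated gene. Each run is the 250 bases before the start site, 5′ to 3′ on the gene's strand, from RefSeq on GRCm38.p6. Capitals mark the hexamer ACAAAG, which SOX proteins can bind, or its reverse complement CTTTGT.
Fzd1 (chr5:4758217-4758466, minus strand): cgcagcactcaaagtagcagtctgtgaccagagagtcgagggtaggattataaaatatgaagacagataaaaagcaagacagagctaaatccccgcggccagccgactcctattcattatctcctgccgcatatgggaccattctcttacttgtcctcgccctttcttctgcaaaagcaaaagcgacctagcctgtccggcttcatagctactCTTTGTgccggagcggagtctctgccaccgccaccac
Fzd7 (chr1:59481897-59482146, plus strand): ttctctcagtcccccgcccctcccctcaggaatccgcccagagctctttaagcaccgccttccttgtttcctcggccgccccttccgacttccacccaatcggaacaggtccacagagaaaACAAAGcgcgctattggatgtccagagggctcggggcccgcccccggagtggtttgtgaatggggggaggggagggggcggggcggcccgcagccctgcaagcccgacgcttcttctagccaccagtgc
Rspo1 (chr4:124986180-124986429, plus strand): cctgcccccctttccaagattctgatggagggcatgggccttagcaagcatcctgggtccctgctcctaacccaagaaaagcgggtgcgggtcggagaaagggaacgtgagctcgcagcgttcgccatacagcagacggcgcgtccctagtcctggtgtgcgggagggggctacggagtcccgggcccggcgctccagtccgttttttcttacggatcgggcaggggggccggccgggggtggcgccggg
The receptor genes that moved in opposite directions thus held the same hexamer, 37 bases upstream of the start in Fzd1 and 129 in Fzd7, on opposite strands, and Rspo1 held none. A match was searched on both strands for ACAAAG, for the other SOX hexamer ACAATG and for the TCF and LEF heptamer CTTTGAT, whose first letters CTTTG also begin the reverse complement of ACAAAG. Of all 32851 RefSeq windows of this length, 16.5% held ACAAAG, 10.7% ACAATG, 3.21% CTTTGAT and 27.5% any of them. Of the 58 members, 36 had a window. At least 1 of the motifs stood in 12 of these 36, and in 2 of the 6 changed members that had a window (Fzd1 and Fzd7, but not Rspo1, Rnf43, Wif1 or Wnt3). Some genes had several windows, and the shares above count windows. By window, 12 of 45 held a motif, and 2 of 7 for the changed members. The heptamer stood upstream of Wnt5b and Wnt11. A match describes the letters and not a bound site.

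After removal of genes with low counts, 45 of the 58 members could be tested, and 13 could not. Of the 45, 5 rose (Wif1, Rnf43, Lrp5, Fzd1 and Lrp6) and 6 fell (Rspo1, Wnt5a, Notum, Sfrp4, Wnt3 and Fzd7), with adjusted p under 0.05 in the quasi-likelihood F test of edgeR, Benjamini-Hochberg adjusted over 16616 genes. Across all tested genes the same rule called 13.5%, 7.69% higher and 5.86% lower. With upper-quartile factors (6.7% of all genes higher, 6.69% lower) or total counts (6.72% and 6.54%), 3 members rose and 6 fell, Fzd1 and Lrp6 no longer passing. Without control replicate 3 (3.34% higher, 2.26% lower), 3 rose and 2 fell. The median log2 fold change (Sox9-tg minus control) was -0.04 over the 45 members and -0.01 over all tested genes, and the median size regardless of sign was 0.43 and 0.28. CPM did not overlap between groups for 12 of the 45 members, the 11 changed ones and Wnt7a, where 24.5% of all tested genes did not overlap. An unadjusted p under 0.05 was found for 16 of the 45 members and 27% of all tested genes. The 5 of these 16 that did not pass after adjustment were Wnt8b, Znrf3, Fzd10, Nkd1 and Dkk3. In 4 of the tested members only 1 of the groups reached the count limit (Rspo1, Rspo3 and Wnt8b in control, Lgr5 in Sox9-tg), so that for these a difference was favoured by the filter itself.

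**Figure D1:**
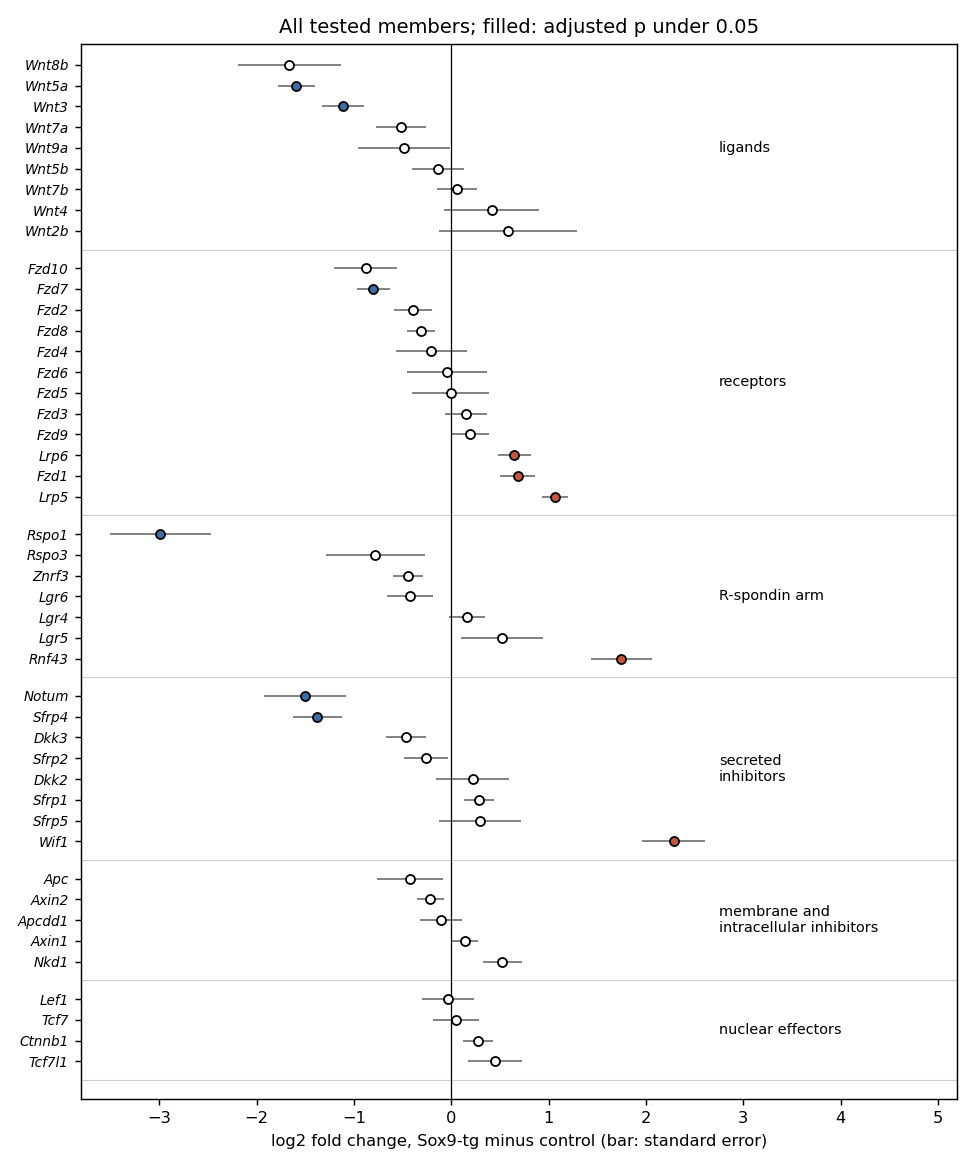
log2 fold change of each of the 45 tested members (x axis, Sox9-tg minus control; bars are standard errors), grouped by role on the y axis. Filled points passed the adjusted threshold: 5 lie right of 0, from Lrp6 at 0.65 to Wif1 at 2.29, and 6 lie left of it, from Fzd7 at -0.80 to Rspo1 at -2.99.

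Among the ligands, Wnt5a and Wnt3 fell, and Wnt7a and Wnt7b remained the most abundant. Of 19 ligand genes, 9 were tested, 2 fell and none rose (0 also at an unadjusted p under 0.05 and with DESeq2 or limma-voom). Of all tested genes 5.86% were lower and 7.69% higher, with 10.3% higher in DESeq2 and 7.47% in limma-voom. For 9 genes, 0 rises is near such a share. Wnt5a (ENSMUSG00000021994, GRCm38 chromosome 14, 28504750 to 28527448, plus strand), which mostly signals without β-catenin, measured 42.1, 48.0 and 40.5 CPM in control replicates 1 to 3 and 15.02, 9.68, 15.8 and 17.3 CPM in Sox9-tg replicates 1 to 4. Every Sox9-tg library lay below every control library, and Sox9-tg replicate 2 was the lowest. The fall was 3.01-fold (log2 fold change -1.59, SE 0.19, adjusted p = 0.00122). Its antisense neighbour Gm2670 overlaps 358 bases of its exons and held 115 counts in all against 4533 for Wnt5a.

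Wnt3 (ENSMUSG00000000125, chromosome 11, 103774150 to 103817957, plus strand), a ligand of the β-catenin route, measured 6.51, 7.18 and 7.12 CPM in control and 2.57, 3.39, 3.67 and 3.22 CPM in Sox9-tg libraries. The control libraries were close together, and no Sox9-tg library reached them. It fell 2.16-fold (log2 fold change -1.11, SE 0.22, adjusted p = 0.011). Without control replicate 3 the adjusted p was 0.0608, the highest of its 15 alternatives.

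Levels of different genes were compared as CPM per kilobase of exon. By that measure Wnt7a stood highest in control (23.9 ± 1.38, SD, n = 3), followed by Wnt7b (13.7 ± 3.19), Wnt5a (5.56 ± 0.502), Wnt3 (2.25 ± 0.121) and Wnt5b (0.947 ± 0.146). The ranges of successive genes in that order did not overlap down to Wnt5b, which overlapped with Wnt4. In Sox9-tg libraries Wnt7a (16.8 ± 5.59, SD, n = 4) and Wnt7b (14.2 ± 3.27) overlapped, and Wnt5a (1.85 ± 0.425) stood above Wnt3 (1.04 ± 0.152). Wnt3 there overlapped with Wnt5b (0.861 ± 0.0449).

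Wnt7a did not pass, at 73.7, 81.0 and 73.1 CPM in control and 69.5, 28.0, 58.0 and 57.5 CPM in Sox9-tg libraries (change of -0.51 on the log2 scale, SE 0.26, adjusted p = 0.244). The groups did not overlap, and Sox9-tg replicate 2 lay far below the other 3. Wnt7b also did not pass, at 66.9 ± 15.6 and 69.7 ± 16.0 CPM (0.06, SE 0.21). Together Wnt7a and Wnt7b made up 76.9% to 78.0% of the summed ligand level per kilobase in control and 78.3% to 86.6% in Sox9-tg libraries. These ranges nearly touched. The sum includes Wnt5a and Wnt3, which fell, so a larger share is not a rise of Wnt7a or Wnt7b. The share was not tested. The share of Wnt5a was 11.003% to 11.8% in control but 4.81% to 5.24% in Sox9-tg libraries. The summed ligand level itself was 44.4 to 55.7 and 25.7 to 42.3 CPM per kilobase, lowest in Sox9-tg replicate 2.

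**Figure D2:**
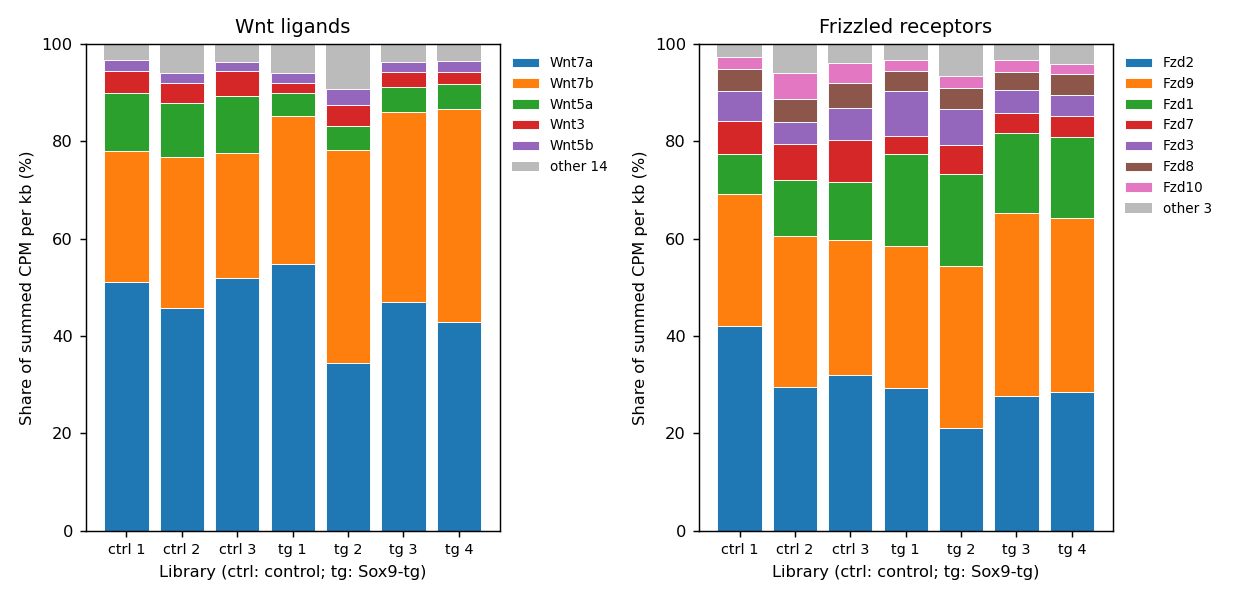
Share of the summed CPM per kilobase of exon (y axis, percent) taken by each Wnt ligand (left) and each Frizzled gene (right) in the 3 control and 4 Sox9-tg libraries (x axis). Wnt7a and Wnt7b fill 76.9% or more of each ligand bar, the Wnt5a segment is smaller in all Sox9-tg libraries, and the Fzd1 segment is larger in all of them.

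Wnt8b, a ligand of the dorsal forebrain, gave 1.05, 2.05 and 0.679 CPM in control and 0.683, 0.349, 0.193 and 0.342 CPM in Sox9-tg libraries. The libraries of the groups overlapped, and it did not pass (log2 fold change -1.66, SE 0.53, adjusted p = 0.0754). Without Sox9-tg replicate 1 it passed (-2.06, adjusted p = 0.0315), and leaving out control replicate 2 gave -1.10. Wnt8b met the count limit through the control group only, so the filter itself favoured a difference. Its counts in Sox9-tg libraries were 13, 7, 3 and 7. Wnt2b, Wnt4, Wnt5b and Wnt9a, the remaining tested ligands, had log2 fold changes from -0.49 to 0.58 and adjusted p from 0.565 to 0.80. Wnt4 was higher in control replicate 2 (4.49 CPM) than in the other control libraries (1.51 and 1.58 CPM), and without it the log2 fold change was 1.13 in place of 0.42, still not passing. Wnt2b was uneven within the Sox9-tg group, at 4.36 CPM in replicate 1 and 0.451 to 1.90 CPM in the other 3. The 10 ligands left untested (Wnt1, Wnt2, Wnt3a, Wnt6, Wnt8a, Wnt9b, Wnt10a, Wnt10b, Wnt11 and Wnt16) reached at most 0.585 CPM in any library. Wnt3a and Wnt10b had 0 counts in 6 of 7 libraries each, and 3 counts in a library correspond to 0.097 to 0.193 CPM. Differences in these genes were not tested. Wnt10a had 5, 16 and 14 counts in control and 2, 0, 1 and 4 in Sox9-tg libraries, without overlap in CPM. Across all tested genes, 24.5% did not overlap. Wnt2 had 1, 5 and 2 counts in control and 1, 0, 0 and 1 in Sox9-tg libraries. Libraries with a single count thus occurred in both groups, and Wnt2 gives no separation that can be read.

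Among the receptors, both LRP co-receptor genes and Fzd1 rose and Fzd7 fell. All 12 were tested, and 3 rose and 1 fell, where 7.69% of all tested genes were higher and 5.86% lower. Lrp5 (ENSMUSG00000024913, chromosome 19, 3584828 to 3686564, minus strand) measured 63.0, 81.2 and 68.0 CPM in control and 152, 126.5, 158 and 156 CPM in Sox9-tg libraries. The lowest Sox9-tg library, replicate 2, lay well above the highest control library, also replicate 2. It rose 2.09-fold (log2 fold change 1.06, SE 0.13, adjusted p = 0.00156).

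Lrp6 (ENSMUSG00000030201, chromosome 6, 134446476 to 134566965, minus strand), the other co-receptor, measured 109, 86.8 and 88.3 CPM in control and 189, 148, 122 and 132 CPM in Sox9-tg libraries. The groups stood closer here, control replicate 1 lying just below Sox9-tg replicate 3, and Sox9-tg replicate 1 was highest. It rose 1.56-fold (log2 fold change 0.65, SE 0.17, adjusted p = 0.0368). The call was lost with upper-quartile factors (adjusted p = 0.0549), with total counts (0.0501) and without control replicates 2 (0.0932) or 3 (0.149) or Sox9-tg replicates 2 (0.055) or 4 (0.0603), in a range from 0.00497 to 0.149 over its alternatives. Summed per kilobase of exon, Lrp5 and Lrp6 stood at 14.2 ± 0.653 in control (SD, n = 3) and 26.0 ± 2.42 in Sox9-tg libraries (SD, n = 4).

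Fzd1 (ENSMUSG00000044674, chromosome 5, 4753839 to 4758035, minus strand), a single-exon Frizzled gene, measured 26.0, 46.7 and 34.2 CPM in control and 60.7, 54.2, 55.8 and 58.6 CPM in Sox9-tg libraries. Sox9-tg libraries were close together, and control libraries spread from 26.0 to 46.7 CPM, all below them. It rose 1.60-fold (log2 fold change 0.68, SE 0.18, adjusted p = 0.0396). This call was lost with upper-quartile factors or total counts (adjusted p = 0.0727 each) and when any library other than control replicate 2 was left out (0.0543 to 0.151), in a range from 0.00722 to 0.151 over its alternatives.

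Fzd7 (ENSMUSG00000041075, chromosome 1, 59482424 to 59486955, plus strand), a close relative of Fzd1, measured 23.4, 32.4 and 26.4 CPM in control and 12.7, 18.4, 15.2 and 16.8 CPM in Sox9-tg libraries. Every Sox9-tg library was below every control library, and in each group replicate 2 was highest. It fell 1.74-fold (log2 fold change -0.80, SE 0.17, adjusted p = 0.0149). Without control replicate 3 the adjusted p was 0.0563, the highest of its alternatives.

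The relation of Fzd1 to Fzd7 can be read inside each library, where the scaling of libraries has no part. The log2 ratio of their counts per kilobase was 0.26, 0.64 and 0.48 in control and 2.37, 1.67, 1.99 and 1.91 in Sox9-tg libraries. Fzd1 thus exceeded Fzd7 in all 7 libraries, and by more in each Sox9-tg library than in any control library. Against Fzd2, the third gene of this Frizzled subgroup, the log2 ratio of Fzd1 was -2.36 to -1.36 in control, against -0.79 to -0.15 in Sox9-tg libraries. Fzd2 itself did not pass (116, 104 and 80.1 CPM, then 82.2, 52.5, 82.2 and 88.1 CPM, adjusted p = 0.24). These pairs were chosen after the values were seen, and the ratios are given as a description without a test.

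**Figure D3:**
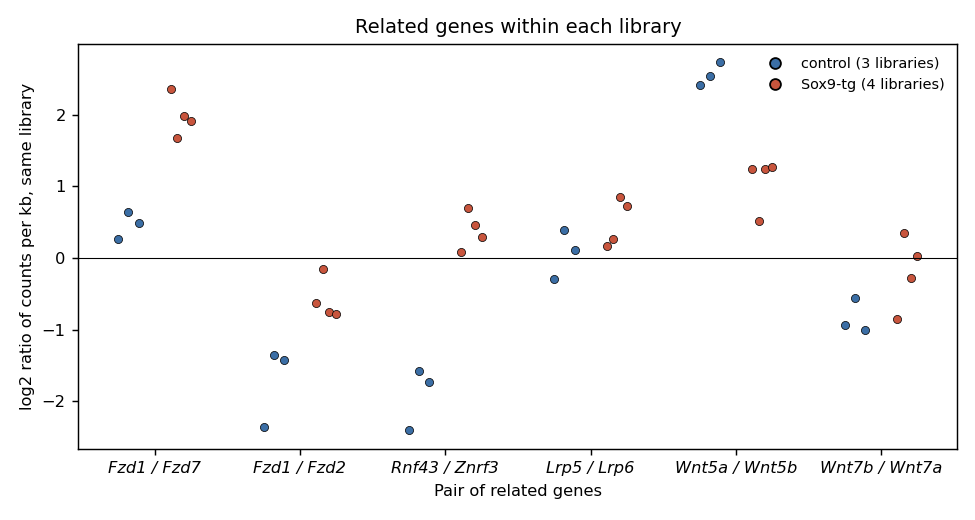
log2 ratio of counts per kilobase of exon between related genes in the same library (y axis) for 6 pairs (x axis), with 3 control and 4 Sox9-tg points each. Fzd1/Fzd7, Fzd1/Fzd2 and Rnf43/Znrf3 lie higher and Wnt5a/Wnt5b lower in all Sox9-tg libraries, and Lrp5/Lrp6 and Wnt7b/Wnt7a overlap between groups.

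Per kilobase, Fzd2 (27.4 ± 5.03) and Fzd9 (23.1 ± 6.03) led the Frizzled genes in control libraries with overlapping ranges, ahead of Fzd1 (8.49 ± 2.49) and Fzd7 (6.05 ± 1.01). In Sox9-tg libraries Fzd9 (26.4 ± 4.66) and Fzd2 (20.8 ± 4.39) overlapped as well, and Fzd1 (13.7 ± 0.691) followed above Fzd3 (4.90 ± 1.57) and Fzd7 (3.48 ± 0.532). The share of Fzd1 in the summed Frizzled level was 8.21% to 11.96% in control, against 16.3% to 19.1% in Sox9-tg libraries, while that of Fzd7 was 6.86% to 8.55% and 3.67% to 5.98%. The sum over all 10 genes was 80.0 ± 14.7 in control and 77.4 ± 7.23 CPM per kilobase in Sox9-tg libraries, with overlapping ranges.

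Fzd10 did not pass, at 6.04, 17.0 and 8.96 CPM in control and 5.62, 5.19, 6.57 and 5.90 CPM in Sox9-tg libraries (-0.88 on the log2 scale, SE 0.32, adjusted p = 0.116). Control replicate 2 was highest, and the groups overlapped. Without control replicate 1 Fzd10 passed (-1.14, adjusted p = 0.0447), and leaving out control replicate 2 gave -0.37. The other 6 Frizzled genes that did not pass (Fzd3, Fzd4, Fzd5, Fzd6, Fzd8 and Fzd9) had log2 fold changes from -0.31 to 0.19. Fzd4, Fzd5 and Fzd6 were scarce in control replicates 1 and 3 (3.49 to 5.95 CPM) and higher in control replicate 2 (9.65 to 13.4 CPM). That library also had the highest microglial, endothelial, ependymal and fibroblast marker sums. Without it the log2 fold changes of these Frizzled genes turned positive, at 0.38, 0.37 and 0.69, and none passed.

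In the R-spondin arm, the ubiquitin ligase gene Rnf43 rose, the ligand gene Rspo1 fell, and the LGR receptors were not called. R-spondins bind LGR receptors and take the ligases RNF43 and ZNRF3 away from the membrane, where these otherwise remove Frizzled proteins. Rnf43 (ENSMUSG00000034177, chromosome 11, 87662722 to 87735539, plus strand) measured 4.53, 12.2 and 10.8 CPM in control and 24.7, 38.5, 30.7 and 30.6 CPM in Sox9-tg libraries. All Sox9-tg libraries lay clearly above the control libraries, of which replicate 1 was lowest. It rose 3.35-fold (log2 fold change 1.74, SE 0.31, adjusted p = 0.00778).

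Znrf3, the second ligase, measured 28.9, 43.7 and 43.1 CPM in control and 27.9, 28.4, 26.9 and 30.2 CPM in Sox9-tg libraries. Control replicate 1 lay within the Sox9-tg range, and Znrf3 did not pass (log2 fold change -0.45, SE 0.15, adjusted p = 0.096). Without control replicate 1 the adjusted p was 0.0229. The log2 ratio of Rnf43 to Znrf3 counts per kilobase was -2.40, -1.57 and -1.73 in control and 0.09, 0.70, 0.46 and 0.29 in Sox9-tg libraries. Per kilobase, Znrf3 was thus the more abundant ligase transcript in all 3 control libraries and Rnf43 in all 4 Sox9-tg libraries. In Sox9-tg replicate 1 the margin was small, and its raw counts were 471 for Rnf43 and 532 for Znrf3. Across the Sox9-tg group the levels overlapped, at 3.77 to 5.87 CPM per kilobase for Rnf43 and 3.40 to 3.82 for Znrf3. The ratio is a description without a test.

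Rspo1 (ENSMUSG00000028871, chromosome 4, 124986430 to 125009099, plus strand) was scarce. It had 16, 72 and 29 counts in control (0.93, 2.34 and 0.938 CPM) and 2, 5, 3 and 3 counts in Sox9-tg libraries (0.105, 0.249, 0.193 and 0.146 CPM). The Sox9-tg libraries were near the level of 3 counts, and control replicate 2 was highest. Only control libraries reached the count limit, so the filter itself favoured a difference here. Over pooled counts, 117 in control and 13 in Sox9-tg libraries, the rate in control was 8.57 times higher, with an exact Poisson 95% interval of 4.82 to 16.6 that covers counting error only. The fitted log2 fold change was -2.99 (SE 0.51, adjusted p = 0.00647) and, without control replicate 2, -2.39 (adjusted p = 0.0239, in a range from 0.000556 to 0.0239 over its alternatives). The part of the microglial, endothelial, ependymal and fibroblast RNA of that library in this value was not tested. Rspo3 (0.964 ± 0.536 and 0.565 ± 0.29 CPM, SD, n = 3 and 4) did not pass, and Rspo2 was too scarce to test, at no more than 1.14 CPM.

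Lgr4, the most abundant LGR receptor per kilobase, stood at 16.1 ± 2.87 and 17.97 ± 3.34 CPM (log2 fold change 0.16, SE 0.19). Lgr6 (10.7 ± 3.17 and 7.98 ± 1.11 CPM) and Lgr5 (0.968 ± 0.50 and 1.41 ± 0.113 CPM) did not pass either, with adjusted p = 0.288 and 0.485.

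Secreted inhibitors moved in both directions. Wif1 rose, and Sfrp4 and Notum fell. Of the 10 genes 8 were tested, and Dkk1 and Dkk4 were too scarce, at no more than 0.291 CPM. Wif1 (ENSMUSG00000020218, chromosome 10, 121033960 to 121100650, plus strand), which encodes a protein that binds Wnt ligands outside the cell, measured 0.639, 0.683 and 0.582 CPM in control and 3.15, 3.94, 3.03 and 2.34 CPM in Sox9-tg libraries. Control libraries were nearly level, and all Sox9-tg libraries lay far above them. It rose 4.88-fold (log2 fold change 2.29, SE 0.32, adjusted p = 0.00272). Per kilobase its level in Sox9-tg libraries was 1.28 ± 0.27 (SD, n = 4), below Sfrp5, Sfrp2, Dkk3 and Sfrp1.

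Sfrp4 (ENSMUSG00000021319, chromosome 13, 19623104 to 19632994, plus strand), which encodes a secreted Frizzled-related decoy, measured 6.16, 5.49 and 7.24 CPM in control and 1.94, 2.44, 3.09 and 2.24 CPM in Sox9-tg libraries. The groups did not overlap. It fell 2.59-fold (log2 fold change -1.37, SE 0.25, adjusted p = 0.00833), and without control replicate 3 the adjusted p was 0.0573, the highest of its alternatives.

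Notum (ENSMUSG00000042988, chromosome 11, 120653788 to 120661175, minus strand), which encodes the enzyme that removes the lipid from Wnt ligands and is itself a Wnt target, measured 2.44, 6.73 and 3.85 CPM in control and 1.52, 1.75, 0.837 and 2.00 CPM in Sox9-tg libraries. The highest Sox9-tg library stood just under the lowest control library, and control replicate 2 was highest. It fell 2.83-fold (log2 fold change -1.50, SE 0.42, adjusted p = 0.0467). Without control replicate 2 the log2 fold change was -1.03 (adjusted p = 0.152), and the call was lost with limma-voom (0.0528), without control replicate 3 (0.115) and without each of Sox9-tg replicates 1 to 4 (0.0643 to 0.113), in a range from 0.00878 to 0.152. An antisense gene, Notumos, overlaps 708 bases of its exons, and the use of strand is not given in the sources used here. Notumos held 5, 34 and 18 counts in control and 4, 2, 1 and 5 in Sox9-tg libraries, so reads of the pair cannot be told apart with certainty.

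Sfrp1 and Dkk3, the most abundant secreted inhibitors per kilobase in both groups, did not pass. Sfrp1 measured 137, 138 and 137 CPM in control and 125, 176, 179 and 189 CPM in Sox9-tg libraries (0.29 on the log2 scale, SE 0.15, adjusted p = 0.269), and only Sox9-tg replicate 1 lay below the control libraries. Without that library its adjusted p was 0.0204. Dkk3, a Dickkopf-related gene, measured 85.3, 133 and 112 CPM in control and 56.2, 83.6, 82.5 and 96.2 CPM in Sox9-tg libraries (-0.47, SE 0.20, adjusted p = 0.18), and the groups overlapped. With the replicate number as a block over replicates 1 to 3 it passed (-0.56, adjusted p = 0.0116), which made 7 members lower and left 5 higher, where the block called 9.69% of all genes higher and 9.05% lower. Sfrp2, Sfrp5 and Dkk2 had log2 fold changes from -0.26 to 0.29 and did not pass.

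**Figure D4:**
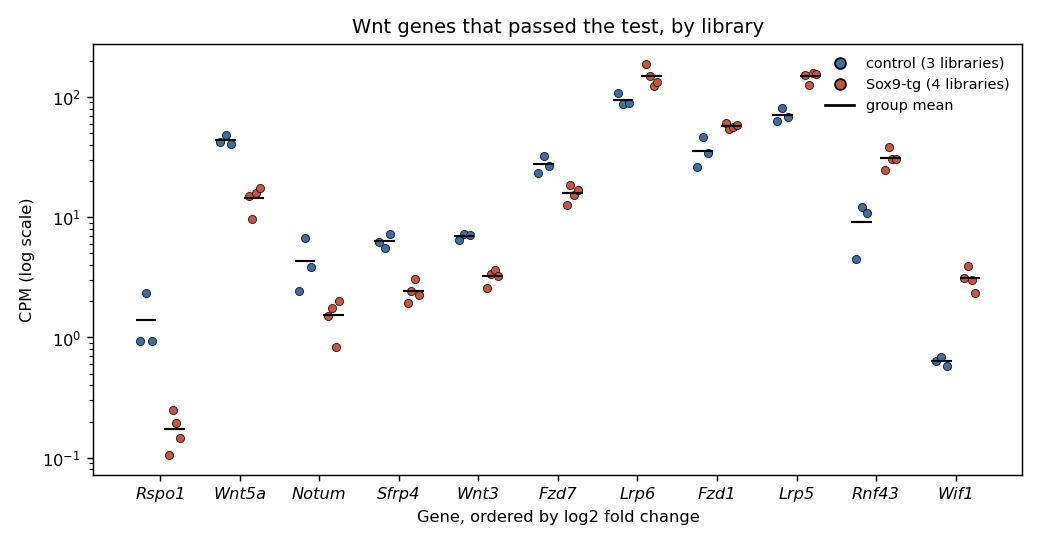
CPM (log scale, y axis) of the 11 members that passed the test, ordered by log2 fold change (x axis), with 1 point per library and a line at the mean of 3 control or 4 Sox9-tg libraries. The groups do not overlap for any of them, and Rspo1 and Wif1 are the scarcest, at 0.105 to 2.34 and 0.582 to 3.94 CPM.

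Among the members, the membrane and intracellular inhibitors and the nuclear effectors were not called, and other intracellular genes of the pathway follow below. Of the 5 membrane and intracellular inhibitors and the 4 nuclear effectors, 0 passed in edgeR, in DESeq2 (18.4% of all genes called) or in limma-voom (13.5%), and Nkd1 was the only gene with an unadjusted p under 0.05. Nkd1, a Dishevelled-binding feedback gene, measured 47.3, 71.1 and 65.4 CPM in control and 90.6, 62.6, 105 and 93.7 CPM in Sox9-tg libraries. Sox9-tg replicate 2 lay within the control range and the other 3 above it (log2 fold change 0.52, SE 0.20, adjusted p = 0.131), and without that library the adjusted p was 0.0344. Axin2, the most widely used readout of β-catenin activity, measured 55.9, 80.6 and 75.2 CPM in control and 65.8, 56.6, 61.2 and 60.0 CPM in Sox9-tg libraries. All Sox9-tg libraries lay inside the control range (-0.21, SE 0.14, adjusted p = 0.368).

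Axin1, a scaffold of the β-catenin destruction complex, stood at 73.3 ± 9.44 and 80.8 ± 8.51 CPM (SD, n = 3 and 4), and Apcdd1, a membrane inhibitor, at 105 ± 37.4 and 97.6 ± 12.004 CPM. Apc, the other scaffold, was uneven in Sox9-tg libraries, at 459, 445, 187 and 207 CPM, and measured 484, 476 and 345 CPM in control (adjusted p = 0.471). Ctnnb1, which encodes β-catenin and was the most abundant member per kilobase, measured 1087, 820 and 933 CPM in control and 1147, 1004, 1240.2 and 1199 CPM in Sox9-tg libraries, with overlap between control replicate 1 and Sox9-tg replicate 2 (0.28, SE 0.15, adjusted p = 0.294). Tcf7l1 (28.6 ± 9.79 and 39.1 ± 9.73 CPM), Tcf7 (8.73 ± 2.97 and 9.06 ± 1.06 CPM) and Lef1 (5.26 ± 1.77 and 5.16 ± 0.691 CPM), the DNA-binding partners of β-catenin, did not pass, with log2 fold changes of 0.45, 0.05 and -0.03. The sign of Tcf7 turned with upper-quartile factors and with total counts (-0.0078 and -0.0087). The antisense gene Gm43352 overlaps 1208 bases of Lef1 exons and held 117 counts against 822 for Lef1.

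Other genes of the pathway, from a list of 60 that are not members, gave 4 rises and 5 falls among 57 tested, or 15.8% called against 13.5% of all tested genes. Those that rose were Dact1, a Dishevelled-binding protein gene (25.5 ± 2.35 to 48.2 ± 5.06 CPM, log2 fold change 0.92, SE 0.13), the glypican gene Gpc6 (0.94, SE 0.15), Ctnnbip1, which encodes an inhibitor of β-catenin and TCF binding (86.5 ± 8.83 to 141 ± 19.5 CPM, 0.70, SE 0.14), and the planar polarity gene Prickle1 (1.55, SE 0.42). Celsr1, a planar polarity cadherin gene, fell from 72.2 ± 11.5 to 23.7 ± 4.53 CPM (-1.60, SE 0.17), as did the co-repressor gene Tle2 from 39.2 ± 12.03 to 12.9 ± 2.81 CPM (-1.61, SE 0.25). Dact2 (-1.22), Draxin, a secreted inhibitor (-0.66), and Cxxc4 (-0.39) fell as well. Genes of ligand processing and of the Wnt7 receptor complex did not pass: Porcn (36.7 ± 3.99 and 41.6 ± 5.77 CPM), Wls (38.9 ± 1.25 and 33.1 ± 6.39 CPM), Reck (13.8 ± 4.23 and 13.4 ± 4.63 CPM) and Adgra2 (7.14 ± 4.82 and 9.16 ± 1.05 CPM, log2 fold change 0.35). Without control replicate 2 Adgra2 passed (1.06, adjusted p = 0.0175).

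Prickle1, Dact2, Draxin and Cxxc4 each lost their calls in 7 or more of 15 alternatives, with adjusted p up to 0.124, 0.114, 0.215 and 0.211, and Ctnnbip1 in 2. With the replicate block, which called 18.7% of all tested genes, 9 of the listed genes rose, Tcf7l2, Vangl1, Celsr2, Frzb and Dact3 joining the 4 above, and 5 fell, with Cxxc5 (adjusted p = 0.035) in place of Cxxc4 (0.0744).

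A list of 18 commonly used Wnt target genes, 10 of them members, had 15 tested, of which Myc and Rnf43 rose and Notum fell (20% called, against 13.5% of all tested genes). Myc, a growth regulator under many inputs, went up from 23.0 ± 8.76 to 76.7 ± 20.2 CPM (1.73 on the log2 scale, SE 0.31, adjusted p = 0.00727). Ccnd1, which encodes cyclin D1, did not pass (90.6 ± 17.1 and 121 ± 13.8 CPM). Sp8 did not pass (241 ± 59.6 and 79.0 ± 43.8 CPM, adjusted p = 0.0531) but fell with the replicate block (-1.89, adjusted p = 0.00271). Sp8 also fell with DESeq2 (0.0433), without a filter (0.0222) and without Sox9-tg replicate 1 (0.0253) or 2 (0.0118). Cd44 did not pass but fell with DESeq2 (-0.55, adjusted p = 0.0177), limma-voom (0.0402), upper-quartile factors (0.04), total counts (0.046) and the 1 CPM filter (0.0458). Axin2, Nkd1, Znrf3, Lef1, Tcf7, Lgr5 and Apcdd1, the other tested targets among the members, did not pass.

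The changed members moved along with marker genes of several cell types, whose part in each Wnt gene was not tested. Of the myelinating oligodendrocyte genes 7 of 8 tested rose, Mbp, Mag and Myrf among them. Mog did not pass and had a negative log2 fold change (-0.42), and Mobp and Opalin were too scarce to test. The summed level of all 10 listed genes was 146 to 296 CPM in control and 838 to 5264 CPM in Sox9-tg libraries. Of the NG2 glia genes 9 of 10 rose. Lower were 7 of 12 neuronal, 6 of 10 progenitor, 9 of 10 proliferation and 5 of 10 astrocyte genes, the last being Aqp4 (log2 fold change -2.36), Agt (-1.77), Slc1a2 (-1.20), Gja1 (-1.12) and Glul (-0.86). Of 7 tested pericyte and mural genes only Cspg4 passed, which rose and is also an NG2 glia marker, and 5 had negative log2 fold changes. Of 7 tested fibroblast and meninges genes Lum rose (4.61) and Ptgds fell (-1.88). Of 4 tested ependyma and choroid plexus genes only Ttr passed, which rose (1.49). Without control replicate 2, the library with the highest microglial and endothelial sums, the log2 fold changes of Wnt5a (-1.51), Wnt3 (-1.08), Lrp5 (1.18), Fzd1 (0.93), Fzd7 (-0.66), Rnf43 (2.00), Wif1 (2.35), Sfrp4 (-1.46) and Rspo1 (-2.39) passed. Lrp6 was close to its value with all libraries (0.59) but did not pass, and Notum was smaller (-1.03) and did not pass.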

How the data were processed

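RNA of 3 control and 4 Sox9-tg libraries was sequenced, and the authors deposited raw read counts by gene, 1 table a library. The tools were STAR 2.5.2b, Trimmomatic 0.36, DESeq, DESeq2 and, from Subread 1.5.2, featureCounts, on build GRCm38, per the submitters' processing notes. Settings, annotation release and strand use were not stated there. Groups and replicate numbers came from the sample titles. The members and gene lists were chosen with earlier results of these data known. Genes were filtered with edgeR's filterByExpr (minimum count 10, minimum total 15), which left 16616, and libraries were scaled with TMM. The test was edgeR 4.0.16's quasi-likelihood F test in R 4.3.3, two-sided, on a design with group alone, and p-values were adjusted by Benjamini-Hochberg over all tested genes and a threshold of 0.05. The SE is the log2 fold change divided by the square root of F. CPM used scaled library sizes, and levels per kilobase used merged exon lengths of GENCODE M21 (GRCm38), present for all 58 members. Members called, unadjusted p under 0.05, Axin2, Lef1, Ctnnb1 and the 3 most abundant per role were named by rule, and the rest by range. Other choices were RLE (DESeq2 median-of-ratios), upper-quartile or no factors, no filter, a filter of 1 CPM in 3 libraries, DESeq2 1.42.0, limma-voom (limma 3.58.1), leaving out each library, and the replicate number as a block over replicates 1 to 3. Same-numbered control and Sox9-tg libraries deviated together from their group means (correlation across genes 0.389, 0.621 and 0.132). For control replicate 3 the value was little above those with Sox9-tg replicates 1 (0.12) and 4 (0.0964). The labels state no pairing, so whether the numbers pair the libraries is not settled. The block was therefore run as an alternative only, and the main test did not use the numbers. The steps were tested on simulated counts. In each pair of libraries 33 to 270 of the tested genes had the same count, and the others differed. Rows with an identifier but no gene name held 0.0116% to 0.0154% of counts and stayed in the tables. Intervals cover counting error only.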

Additional observations from a re-analysis of the deposited data

Results flagged for a closer look

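Among the 45 tested members, 3 had a Sox9-tg library set apart from the other 3 by a gap larger than Dixon's 95% limit, or 6.67%, where chance gives about 5%. Fzd2 was lowest in Sox9-tg replicate 2, at 52.5 CPM against 82.2 to 88.1 CPM. Rspo3 was highest in Sox9-tg replicate 2, at 0.998 CPM against 0.39 to 0.451 CPM. Tcf7l1 was lowest in Sox9-tg replicate 1, at 24.5 CPM against 43.7 to 44.3 CPM.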

How the results depend on the processing

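Wnt5a, Lrp5, Rnf43 and Wif1 kept direction and call under all 15 alternatives. Rspo1 kept them under the 14 that tested it. Only its control libraries reached the count limit, so the filter favoured a difference, and the filter of 1 CPM in 3 libraries removed Rspo1. Leaving out each library in turn gave 3 to 5 members higher and 2 to 8 lower, 575 to 1785 of all genes higher and 390 to 1384 lower, 2 to 6 other pathway genes higher and 2 to 6 lower, and 0 to 2 target genes lower. Upper-quartile factors and total counts each gave 3 members higher and 2 target genes lower. RLE factors gave 3 other pathway genes lower. Without a filter 2 other pathway and 2 target genes were lower, and with the 1 CPM filter 2 target genes. DESeq2 gave 7 other pathway genes higher and 3 target genes lower. The replicate block took the numbers of replicates 1 to 3 as a possible pairing. With it 1491 of all genes were lower, 9 other pathway genes higher and 2 target genes lower. Apart from Dkk3, Sp8 and the pathway genes named with it above, the block changed no other call among the genes named. None of the 11 called members changed sign under the alternatives run. Some genes not called did. With the replicate block Wnt7b was -0.070, Fzd6 0.12 and Tnfrsf19 -0.042. With limma-voom Fzd6 was 0.064. With upper-quartile factors Tcf7 was -0.0078 and Tnfrsf19 -0.044, and with total counts Tcf7 was -0.0087 and Tnfrsf19 -0.045. Leaving out libraries, the log2 fold change ranged from -0.081 to 0.28 for Wnt7b, -0.29 to 0.90 for Wnt2b, -0.75 to 0.26 for Wnt9a, -0.087 to 0.27 for Fzd3, -0.33 to 0.69 for Fzd6, -0.34 to 0.37 for Fzd5, -0.47 to 0.38 for Fzd4, -0.0094 to 0.41 for Dkk2, -0.30 to 0.21 for Apcdd1, -0.12 to 0.36 for Tcf7, -0.18 to 0.28 for Lef1 and -0.14 to 0.13 for Tnfrsf19. The cause of these shifts was not tested. Depth limits the 13 untested members, of which 8 had 0 counts in some library.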
